A study of Mus musculus with 58 samples.

Results

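The Notch pathway was followed through 10 of the 22556 genes in the count files, in chromatin RNA of mouse embryonic stem (ES) cells and of cultures differentiating towards neural precursor cells (NPC). They were chosen by name. They comprised 5 target genes of the pathway (Hes1, Hes5, Hey1, Heyl and Nrarp), the receptors Notch1 and Notch3, the ligands Dll1 and Jag1, and Rbpj, which encodes the DNA-binding factor of the pathway. The question was whether they differed between lines with and without point mutations in the SPOC domain of SPEN.

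In Notch signalling a ligand on one cell binds a receptor on its neighbour, the receptor is cut, and its intracellular part enters the nucleus. There it joins RBPJ and a Mastermind co-activator on target genes such as Hes1 and Hey1. Without that signal RBPJ is held with corepressors, and SPEN is one of them. The SPOC domain of SPEN binds corepressor complexes, and Hes and Hey proteins are repressors that keep neural progenitors from becoming neurons.

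The series held 58 libraries in 28 groups, 26 groups of 2 libraries and 2 groups of 3, all from female F1 cells with a 129S (Dom) and a Cast genome. In all of them the Xist promoter on the Dom X chromosome had been replaced by a TetOn promoter, which doxycycline at 1 ug/mL switches on. The lines without the SPOC mutation were the parental line (WT, iXist-ChrX-Dom), FKBP12-PCGF35 (a degron line in which dTAG-13 removes PCGF3 and PCGF5) and DelPID (an Xist deletion that includes the B/C repeat region). Each had derived lines with the mutation, namely SPOC (clones C11, D9 and H1), FKBP12-PCGF35_SPOC (clones F10 and F6) and DelPID_SPOC (clones A8 and G3). For DelPID_SPOC only the sample titles name the mutation, and the field for cell engineering lists the TetOn promoter and the Xist deletion alone. ES cells were taken at day 0 without doxycycline and at day 1 with it, and NPC cultures at day 3 and day 6 with it. Degron lines were sampled untreated and with dTAG-13, labelled as 100 uM and added 12 h before doxycycline. Clone C11 was sampled as ES cells only. The paper describes a DelPID_SPOC clone that it names G, probably G3 here, as tetraploid. It found some XO cells, which lack an X chromosome, in clone F6, and sub-cloned F6 before sequencing. In NPC of another clone of that line it interprets an allelic skew as selection for cells that lost the Cast X. The legend names that clone G3, but besides F6 the labels of this line name only F10, so F10 is probably meant. ES cells had been grown on inactivated mouse fibroblasts, which were depleted by pre-plating, so a few feeder cells could remain. WT and DelPID had no ES libraries among those analysed here, so the mutation could be compared in ES cells in the degron line alone (4 contrasts of 2 against 2 libraries) and in NPC in all 3 backgrounds (8 contrasts of 2 against 2).

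Each replicate of a mutant group was a different clone, whereas the replicates of a group without the mutation were numbered samples of one line. Libraries of one clone deviated from their group means together, with correlations across genes of 0.87 to 0.96 between untreated and dTAG-13 libraries and of 0.65 to 0.95 between the days of one stage. The libraries of a clone are therefore not separate replicates of the mutation, and each main result is given over libraries and also with a block for the clone or, in lines without the mutation, the replicate number. The p-values measure the spread between these samples only.

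Total counted fragments ran from 2.29 to 30.0 M (M for mega, as in Mb) per library with a median of 15.9 M, and 2 libraries lay under 9 M (DelPID day 6 replicate 1 at 2.29 M and DelPID day 3 replicate 1 at 6.37 M). Spen, the engineered gene, was higher in the mutant lines. In ES cells it lay between 71.4 and 149 CPM (counts scaled to a common library total) without the mutation and between 237 and 360 CPM with it, and in NPC between 118 and 208 CPM against 199 to 848 CPM. The counts do not show the point mutations themselves. The neural progenitor marker Sox1 had no fragment in any library, and whether the count files could count it at all was not tested. Zic1 reached at most 0.16 CPM in the NPC libraries, whereas other neural progenitor genes rose along the protocol. In the degron line without the mutation 3 of 4 tested were called higher at NPC day 6 than at ES day 0 by edgeR (Nes from 16.1 to 119 CPM, Meis2 from 10.0 to 28.7 CPM and Vim from 19.2 to 60.2 CPM), and 7 of 8 pluripotency genes were called lower. With the mutation these were 2 of 4 and 3 of 8. Of all genes, 40.1% were called in this comparison without the mutation and 25.1% with it.

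In NPC cultures 4 of the 8 members that could be tested were called higher with the SPOC mutation and none lower, where 8.62% of all genes were called. They were the target genes Hey1, Hes1 and Nrarp, which rose 2.38-, 1.77- and 1.74-fold, and the receptor Notch1, which rose 1.18-fold (edgeR quasi-likelihood test over libraries, mean of 8 contrasts, Benjamini-Hochberg adjusted p from 0.00122 to 0.0169). Of all 16227 genes tested, 5.47% were called higher and 3.16% lower in this comparison. Of the 8 contrasts, 4 came from clones F10 and F6 of the degron line. In the parental background alone edgeR called no member, and none had an unadjusted p under 0.05, where 1.75% of genes were called. In ES cells Hes1 did not pass the test, Hey1 and Notch3 rose, and Rbpj fell. None of these calls held in the fit with that block (voom), where the estimates stayed close and the adjusted p of Hes1 in NPC was 0.0654.

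Where the target genes lie and what stands in front of them is shown here because RBPJ binds DNA at the letters TGGGAA, often as GTGGGAA. Coordinates of genes are those of the count files on mm10, and the 250 bases before a start site are from RefSeq for GRCm38.p6, which had 9 such windows for 7 of the 10 members. Gene starts in the count files are 1 base lower than in RefSeq, so the Hes5 and Nrarp windows end on the start that the count files give. Capitals mark TGGGAA on either strand (TTCCCA on the printed strand), extended to 7 letters where a G stands before it. Hes5 is printed because its window holds the motif facing both ways, Nrarp because it is a target that rose and has a window, and Rbpj because it fell in ES cells.
Hes5, chr4:154960673-154960922, plus strand: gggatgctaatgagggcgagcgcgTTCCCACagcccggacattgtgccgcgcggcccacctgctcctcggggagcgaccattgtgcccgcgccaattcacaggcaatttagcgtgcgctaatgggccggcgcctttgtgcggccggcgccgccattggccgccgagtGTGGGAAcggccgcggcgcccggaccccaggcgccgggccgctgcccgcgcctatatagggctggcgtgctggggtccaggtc
Nrarp, chr2:25180508-25180757, plus strand: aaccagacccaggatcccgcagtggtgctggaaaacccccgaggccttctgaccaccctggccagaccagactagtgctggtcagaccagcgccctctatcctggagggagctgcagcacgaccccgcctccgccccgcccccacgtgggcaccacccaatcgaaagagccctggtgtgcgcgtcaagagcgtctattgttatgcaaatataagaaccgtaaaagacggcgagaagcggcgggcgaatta
Rbpj, chr5:53590096-53590345, plus strand: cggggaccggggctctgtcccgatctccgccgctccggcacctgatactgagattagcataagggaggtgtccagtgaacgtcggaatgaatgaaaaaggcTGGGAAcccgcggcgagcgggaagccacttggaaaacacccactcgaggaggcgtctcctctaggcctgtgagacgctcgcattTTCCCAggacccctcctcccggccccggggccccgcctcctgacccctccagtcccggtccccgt
The Hes5 window held 2 matches to GTGGGAA, 77 to 83 bases before the start on the gene's strand and 220 to 226 bases before it on the opposite strand. The Rbpj window held 2 matches to TGGGAA, neither preceded by a G, and lies inside the span over which Rbpj was counted (chr5:53555778-53657445). A second window overlaps it and also lies inside that span. It holds 1 match, at the same bases as the opposite-strand match of the printed window. No match was found in the windows of Nrarp, Notch1, Notch3, Dll1 and Jag1. Among all 32851 windows of this length, 21.6% held TGGGAA and 5.42% held GTGGGAA, both strands counted, with GTGGGAA a subset of TGGGAA. The windows of Hes1, Hey1 and Heyl were not analysed here.

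The 10 members covered a wide range of levels. Per kilobase of the counted span, introns included, the median over all libraries was 6.88 FPKM, the CPM divided by that length, for Rbpj, 2.55 for Hes1, 1.43 for Notch1, 1.01 for Notch3, 0.93 for Jag1, 0.59 for Nrarp, 0.50 for Dll1 and 0.21 for Hey1. Hes5 and Heyl stood at 0.05 and 0.01 FPKM. Over all libraries Hes5 had 82 fragments, at most 6 in a library and none in 15 libraries, and Heyl had 145, at most 8 in a library and none in 8. Neither passed the filter on low counts, so 8 of the 10 members were tested and nothing can be said at this depth about a difference in Hes5 or Heyl. Hey1 (870 fragments in all) and Nrarp (1430) were tested on few fragments as well.

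Hes1 (chr16:30065356-30067796), a repressor and the best known target of the pathway, had between 1.73 and 7.25 CPM (median 3.63) in the 16 NPC libraries without the mutation and between 4.63 and 14.0 CPM (median 6.66) in the 16 with it. In the untreated degron line it was 2.68 and 2.38 CPM at day 3 and 7.25 and 5.33 CPM at day 6, against 4.63 and 8.76 CPM and 12.6 and 7.07 CPM in clones F10 and F6. With dTAG-13 it was 2.74 and 2.79 CPM at day 3 and 5.98 and 2.98 CPM at day 6, against 5.82 and 6.24 CPM and 14.0 and 7.67 CPM. In 3 of these 4 contrasts both mutant libraries lay above both matched libraries. In DelPID it was 1.73 and 5.13 CPM at day 3 and 3.05 and 5.08 CPM at day 6, against 5.27 and 8.13 CPM and 7.28 and 9.46 CPM in clones A8 and G3, and here every mutant library lay above both DelPID libraries of its day. In WT it was 7.16 and 3.76 CPM at day 3 and 5.70 and 3.50 CPM at day 6, against 5.81 and 6.19 CPM and 6.06 and 5.33 CPM in clones D9 and H1. In this parental background 3 of the 4 mutant libraries lay between the WT libraries of their day, and D9 at day 6 lay above both.

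Across the 8 NPC contrasts the Hes1 difference was above 0 in all 8, from 0.20 to 1.36 on the log2 scale, and the groups did not overlap in 5, where 20.8% of all gene and contrast pairs had every mutant library above every matched one. The mean difference was 0.82 ± 0.17 (log2, SE), with an edgeR adjusted p of 0.00122. It stayed between 0.75 and 0.95 and called when any 1 of the 32 libraries was left out, and between 0.76 and 0.87 and called when any 1 of the 6 clones was. In the fit with the block the voom estimate was 0.80 with an adjusted p of 0.0654, and with counts summed per clone or number it was 0.76 with an edgeR adjusted p of 0.171. By clone, 4 of 6 mutant clones had a mean above both matched samples, and the exceptions were D9 and H1 (5.94 and 5.76 CPM against 6.43 and 3.63 CPM in WT). This count was 5 of 6 for Hey1, Notch1 and Rbpj. Its share over all genes was not computed, so it cannot be judged as unusual or not. At day 3 alone Hes1 rose by 0.87 (edgeR adjusted p 0.0410), where 2.14% of genes were called.

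**Figure D1:**
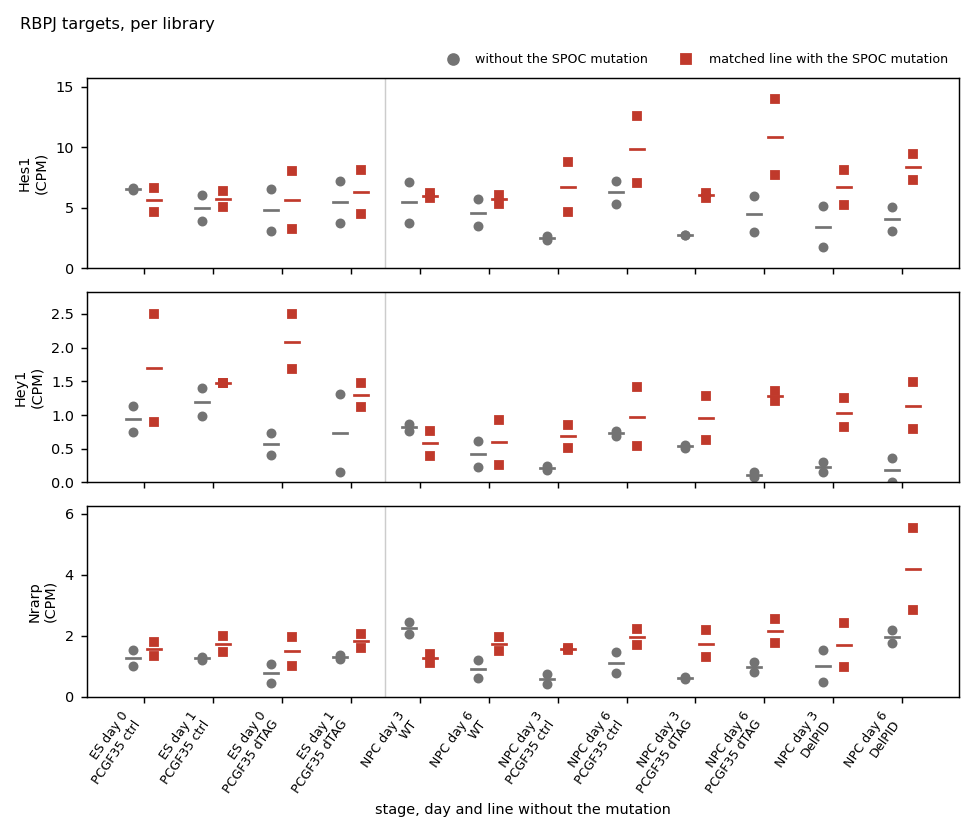
Levels of Hes1, Hey1 and Nrarp in CPM (vertical axes, linear from 0) for each of the 12 contrasts, ES cells left of the grey line and NPC right of it. Each point is 1 library, circles without the SPOC mutation and squares with it, and short lines are means of 2 libraries. In NPC the Hes1 squares reach 14.0 CPM and the circles 7.25 CPM, while in ES cells both cover about the same range (3.11 to 7.23 and 3.27 to 8.13 CPM).

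Nrarp (chr2:25180757-25183332), a target whose product limits the active Notch complex, ranged from 0.43 to 2.46 CPM (median 0.97) without the mutation in NPC and from 0.97 to 5.54 CPM (median 1.73) with it. In the degron line the 8 libraries without the mutation lay at 0.43 to 1.45 CPM and the 8 with it at 1.29 to 2.56 CPM, and the groups did not overlap in any of the 4 contrasts. The highest values came from DelPID_SPOC at day 6, with 2.85 CPM in A8 and 5.54 CPM in G3 against 1.75 and 2.20 CPM in DelPID. The WT day 3 contrast went the other way, with 2.46 and 2.05 CPM without the mutation and 1.12 and 1.40 CPM with it. Every mutant library was above every matched library in 6 of 8 contrasts and below in 1, where 20.8% and 17.6% of all gene and contrast pairs were above and below. The mean difference was 0.80 ± 0.17 (edgeR adjusted p 0.00188), between 0.70 and 0.94 without any 1 library, 0.72 with the block (voom, adjusted p 0.174) and 0.66 on summed counts (edgeR, adjusted p 0.344).

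Hey1 (chr3:8663358-8667038), a repressor related to Hes1, was the scarcest member tested, from 0 to 0.87 CPM (median 0.34) without the mutation in NPC and from 0.27 to 1.49 CPM (median 0.84) with it. In the degron line with dTAG-13 at day 6 it was 0.15 and 0.08 CPM against 1.22 and 1.35 CPM. DelPID day 6 replicate 1, the library of 2.29 M fragments, had no Hey1 fragment, where 3 fragments would have been 1.31 CPM, so the highest mutant value at that day (1.49 CPM) was only a little above what this library could have missed, and the other (0.79 CPM) was below it. At day 3 WT (0.868 and 0.763 CPM) lay above SPOC (0.763 and 0.40 CPM), the nearest pair by less than the third decimal. The groups stood apart upwards in 5 contrasts and downwards in 1, where 20.8% and 17.6% of all gene and contrast pairs did so. The 5 include DelPID day 6, with the library that had no Hey1 fragment. The mean difference was 1.25 ± 0.27 (edgeR adjusted p 0.00265), from 1.10 to 1.91 without any 1 library and 1.08 with the block (voom, adjusted p 0.186).

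Notch1 (chr2:26457901-26503822), a receptor with 62757 fragments over all libraries, moved less. It had 39.7 to 69.6 CPM (median 59.6) without the mutation in NPC and 46.4 to 102 CPM (median 68.4) with it, and the ranges overlapped. The separation was clearest in DelPID, with 39.7 and 51.5 CPM at day 3 and 41.0 and 58.7 CPM at day 6, against 72.0 and 69.0 CPM and 78.9 and 83.1 CPM in A8 and G3. The mean difference was 0.24 ± 0.06 (edgeR adjusted p 0.0169), and it lost its call in 5 of 32 refits without 1 library (adjusted p up to 0.0598), without clone D9 (0.18, adjusted p 0.137), without both libraries under 9 M fragments (0.20, adjusted p 0.0878) and with the block (voom, 0.22, adjusted p 0.286). The 5 libraries were DelPID day 3 replicate 1, untreated FKBP12-PCGF35 day 6 replicate 2, clone F6 with dTAG-13 at day 3, and clone D9 at both days.

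The other receptor, both ligands and Rbpj did not pass in NPC. Notch3 (chr17:32120892-32166852) had medians of 68.3 CPM without and 54.4 CPM with the mutation, a difference of -0.18 ± 0.09 (edgeR adjusted p 0.225). The ligand Jag1 (chr2:137081450-137116520) had 25.0 and 22.5 CPM, a difference of -0.15 ± 0.07 (edgeR adjusted p 0.218). The ligand Dll1 (chr17:15367353-15375823) differed by -0.11 ± 0.21 (edgeR adjusted p 0.828), and its 95% interval of -0.51 to 0.30 leaves room for a change either way. Rbpj differed by 0.17 ± 0.13 (edgeR adjusted p 0.452), and its value hid a split between 2 clones of one line: F10 had 428 to 648 CPM and F6 had 879.9 to 996 CPM in the 4 NPC groups, while the matched degron line had 481 to 1022 CPM. Without F10 the Rbpj difference was 0.35 (edgeR adjusted p 0.0191) and without F6 it was -0.07.

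**Figure D2:**
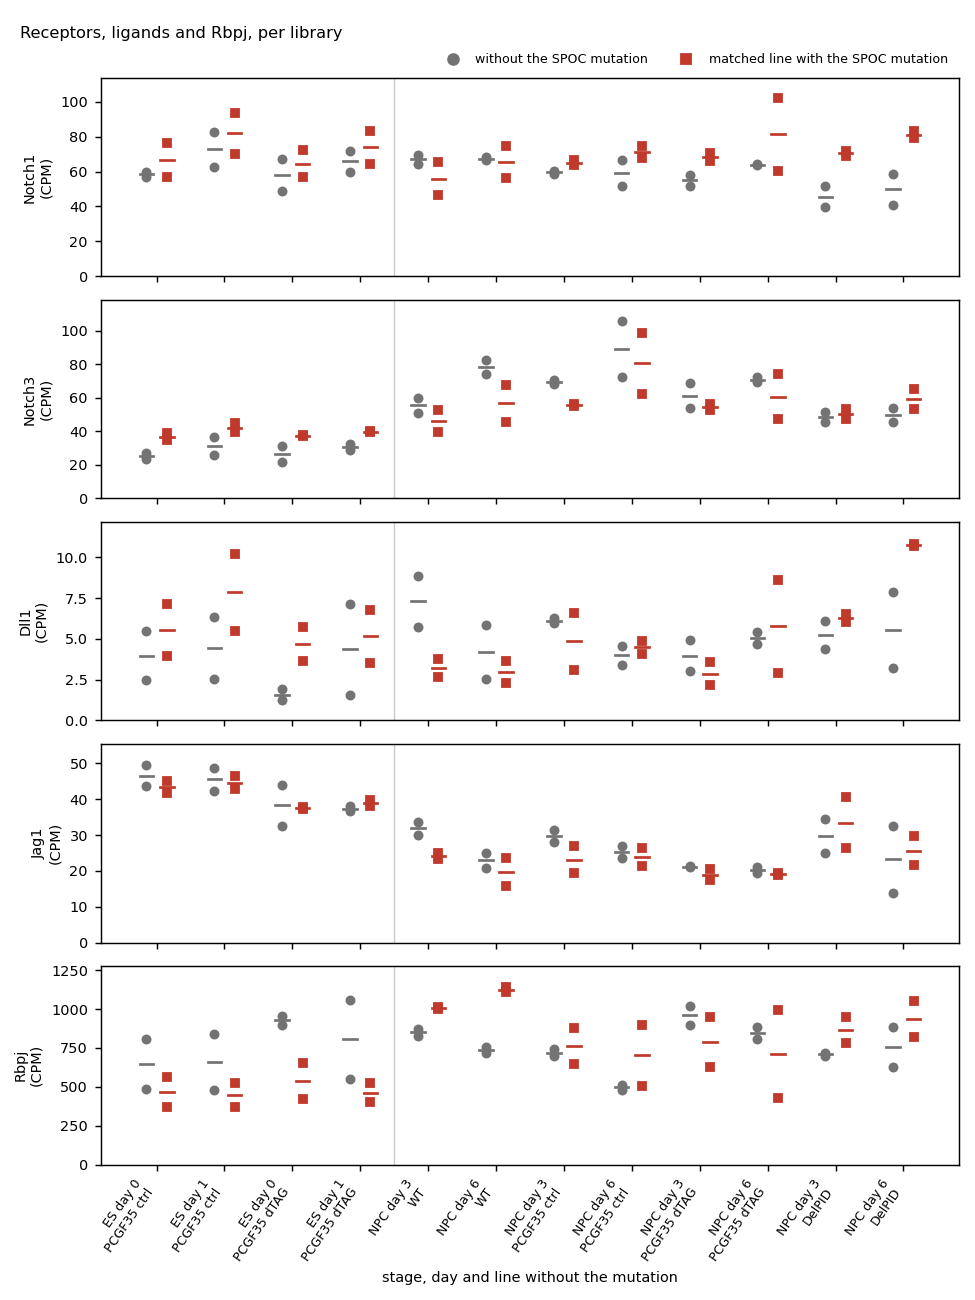
Levels of Notch1, Notch3, Dll1, Jag1 and Rbpj in CPM (vertical axes, linear from 0) in the same 12 contrasts, with 1 point per library and short lines for means of 2 libraries. The 4 ES contrasts of Notch3 are separated, with circles at 21.9 to 36.8 CPM and squares at 34.8 to 44.7 CPM, and Rbpj squares in ES cells do not exceed 652 CPM.

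In ES cells of the degron line 3 of 8 tested members were called over libraries, 2 higher and 1 lower, where 6.09% of all genes were called higher and 6.4% lower (12.5% in all). Notch3 was 23.5 and 27.2 CPM untreated at day 0, 25.8 and 36.8 CPM at day 1, and with dTAG-13 21.9 and 31.0 CPM and 28.5 and 32.5 CPM. With the mutation it was 34.8 and 38.6 CPM, 39.3 and 44.7 CPM, 37.1 and 37.7 CPM, and 39.9 and 39.5 CPM. Both mutant libraries lay above both matched libraries in all 4 contrasts, where 17.3% of gene and contrast pairs did so in ES cells. The Notch3 difference was 0.41 ± 0.13, a 1.32-fold rise (edgeR adjusted p 0.0340), which kept its size in every refit (0.34 to 0.47 without any 1 library) but its call in only 7 of 16.

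Rbpj fell by 0.71 ± 0.18 on the log2 scale in ES cells, to 0.612 of its level without the mutation (edgeR adjusted p 0.00985). The 8 libraries without it had 476 to 1059 CPM (median 823) and the 8 with it 369.6 CPM at the lowest, 472 CPM at the median and 652 CPM at the highest. The matched samples differed among themselves. Replicate 1 had 809 and 837 CPM untreated, whereas replicate 2 had 484 and 476 CPM, below clone F10 (565 and 522 CPM) and above clone F6 (370.1 and 369.6 CPM). With dTAG-13 every mutant library lay below both matched ones, at 958 and 896 CPM against 652 and 422 CPM at day 0 and at 1059 and 551 CPM against 523 and 401 CPM at day 1. This was so in 2 of 4 contrasts, where 13.8% of gene and contrast pairs in ES cells did so. The call was lost without replicate 1 of the untreated line at day 0 or day 1 or of the treated line at day 1 (adjusted p up to 0.0589), and without clone F6 (-0.44, adjusted p 0.0982).

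Hey1 rose by 0.90 ± 0.31 in ES cells (edgeR adjusted p 0.0483), from a median of 0.86 CPM (0.15 to 1.40) to 1.48 CPM (0.90 to 2.50), and 11 of 16 refits without 1 library and the refit without clone F6 lost the call. Dll1 (0.72 ± 0.29, edgeR adjusted p 0.0910) and Nrarp (0.51 ± 0.23, adjusted p 0.128) did not pass, nor did Notch1 (0.12 ± 0.09) and Jag1 (-0.08 ± 0.10). Hes1 had a median of 6.27 CPM without and 5.74 CPM with the mutation in ES cells, and its difference of 0.06 ± 0.23 (edgeR adjusted p 0.873) had a 95% interval of -0.38 to 0.51. The clones split, with F10 at 6.37 to 8.13 CPM and F6 at 3.27 to 5.10 CPM. With the block, voom called no member in ES cells (adjusted p 0.332 for Hey1, 0.321 for Notch3 and 0.277 for Rbpj), 3 members and 2288 genes had an unadjusted p under 0.05, and 25 genes were called in place of 2027. In NPC voom with the block likewise called no member, 4 members and 2028 genes had an unadjusted p under 0.05, and 310 genes were called in place of 1399. On counts summed per clone or number, edgeR called none in either stage.

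**Figure D3:**
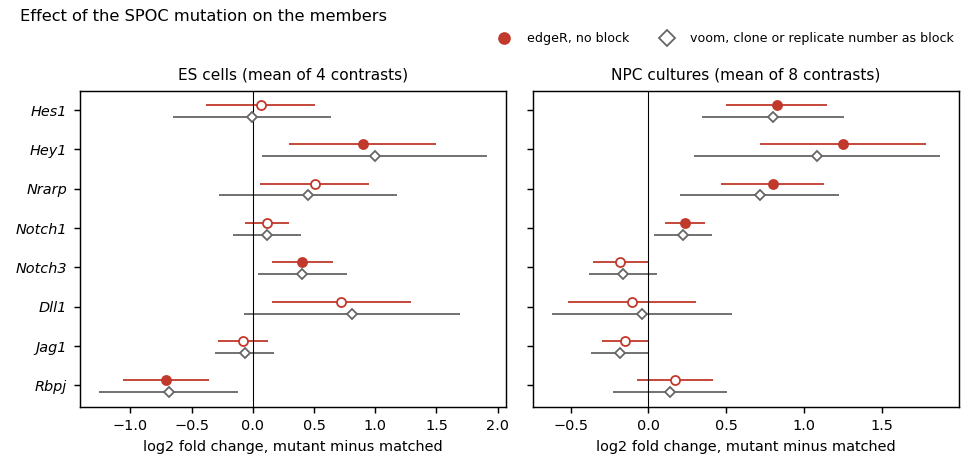
Difference between mutant and matched libraries on the log2 scale (horizontal axis) for the 8 tested members, as the mean of 4 contrasts in ES cells and of 8 in NPC. Circles are edgeR estimates over libraries, filled where the adjusted p is under 0.05, diamonds are voom estimates with the block for clone or replicate number, and bars are 95% intervals. Estimates of both fits lie close together (Hes1 in NPC at 0.82 and 0.80), and no diamond passed the threshold.

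Whether the difference between mutant and matched lines was another in NPC than in ES cells was tested inside the degron line. With edgeR no member was called in this difference, where 0.653% of genes were called. At an unadjusted p under 0.05 there were 4 of 8 members and 2583 of 16227 genes. Notch3 came closest at -0.67 ± 0.18 (adjusted p 0.0603), with 0.41 in ES cells against -0.26 in NPC of this line. Hes1 differed by 1.00 ± 0.33 (adjusted p 0.116), with an NPC difference of 1.06 against 0.06 in ES cells, and Rbpj by 0.68 ± 0.25 (adjusted p 0.164). Other tools called some of these. DESeq2 called 1 member (Notch3, adjusted p 0.0254) and also called more genes than edgeR, as counted below. Voom with the block called 2 members (Hes1 at 0.98, adjusted p 0.0365, and Notch3 at -0.68, adjusted p 0.0055), where it called 1013 of 16227 genes. Without clone F10 edgeR called 4 members and 2480 genes, without F6 none of the members and 208 genes, and the Rbpj difference was 1.37 without F10 and -0.08 without F6.

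The 3 backgrounds gave different values in NPC, but no member was called by edgeR in a test of the difference between any of them, where 0.598% (degron against parental), 0.0308% (DelPID against parental) and 0.154% (DelPID against degron) of genes were. In the degron background Hes1 (1.06), Hey1 (1.51) and Nrarp (1.16) were called, with edgeR adjusted p of 0.00804, 0.0233 and 0.00559, where 4.76% of genes were. In DelPID only Notch1 was called among the members (0.62, edgeR adjusted p 0.00817), where 2.6% of genes were, and Hes1 (0.88, adjusted p 0.145), Hey1 (1.90, 0.0572) and Nrarp (0.78, 0.183) were not. In the parental background no member was called by edgeR, where 1.75% of genes were, and none had an unadjusted p under 0.05, where 2743 genes did. The estimates were 0.29 for Hes1, 0.08 for Hey1, 0.10 for Nrarp and -0.10 for Notch1. The difference between the degron and the parental background was 1.06 ± 0.41 for Nrarp (edgeR adjusted p 0.166) and 0.77 ± 0.40 for Hes1 (adjusted p 0.308), and that between DelPID and parental was 0.71 ± 0.18 for Notch1 (adjusted p 0.154). At day 6 alone Nrarp (0.96, edgeR adjusted p 0.0209) and Hey1 (1.53, adjusted p 0.0305) were called, where 2.63% of genes were. Taken one contrast at a time, edgeR called none of the 96 pairs of member and contrast, where 0.0308% of all pairs were called.

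Levels also changed along differentiation. In the degron line without the mutation, from ES day 0 to NPC day 6 (means of untreated and dTAG-13 libraries), Notch3 rose by 1.63 ± 0.18 from 25.9 to 79.8 CPM and Jag1 fell by 0.88 ± 0.15 from 42.5 to 22.7 CPM, and both were called by edgeR in a comparison that called 40.1% of all genes. With the mutation Notch3 rose by 0.94 ± 0.18 from 37.0 to 70.5 CPM, Jag1 fell by 0.88 ± 0.15 from 40.4 to 21.6 CPM, and Hes1 rose by 0.89 ± 0.32 from 5.65 to 10.3 CPM (edgeR adjusted p 0.0389), where 25.1% of genes were called. The Hes1 call was lost in 4 of 8 refits without 1 library. Between these days it went from 6.45, 6.66, 6.52 and 3.11 CPM to 7.25, 5.33, 5.98 and 2.98 CPM without the mutation.

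The mutant lines that had no matched ES libraries gave the same directions for the receptor and ligand. In SPOC, Notch3 rose by 0.88 and Jag1 fell by 1.42 from ES day 0 to NPC day 6, and Rbpj rose by 1.07, from 538.6 to 589.9 CPM to 1107 and 1144 CPM (34.1% of genes called). In DelPID_SPOC, Jag1 fell by 1.19, Nrarp rose by 1.65 and Notch1 by 0.55 (19.2% of genes called), and Notch3 did not pass (0.65, edgeR adjusted p 0.0683). Hes1 was at its highest among ES libraries in SPOC, where C11 had 11.6 and 13.7 CPM, D9 11.5 and 11.4 CPM and H1 6.69 and 9.37 CPM at day 0 and day 1. DelPID_SPOC ES cells had 6.68 to 9.70 CPM. These values have no counterpart without the mutation, so no comparison was made.

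**Figure D4:**
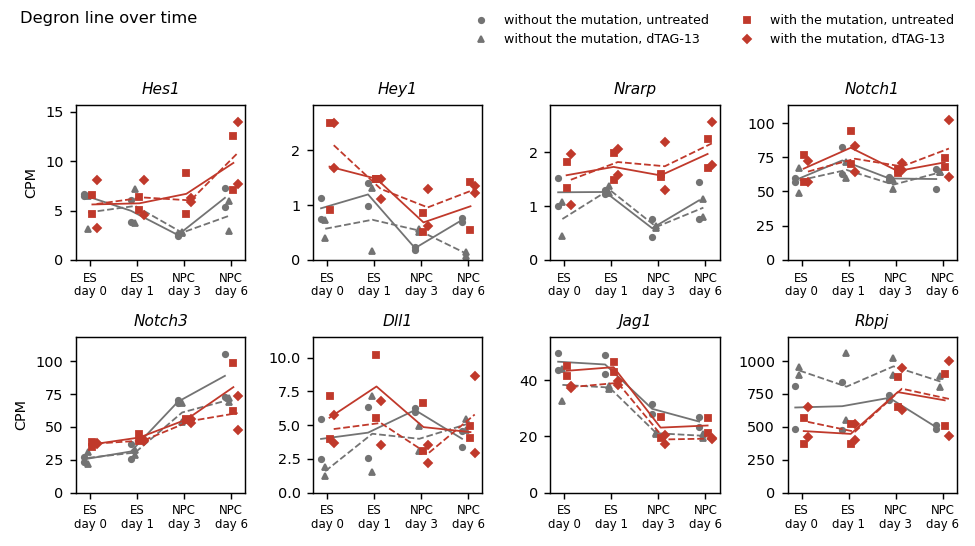
Levels of the 8 tested members in CPM (vertical axes, linear from 0) in the degron line at ES day 0, ES day 1, NPC day 3 and NPC day 6. Each point is 1 library and each line joins means of 2, grey without and red with the SPOC mutation, solid and dashed for untreated and dTAG-13. Notch3 climbs and Jag1 falls in all 4 series, and Hes1 at day 3 is at 2.38 to 2.79 CPM without the mutation and at 4.63 to 8.76 CPM with it.

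Removal of PCGF3 and PCGF5, subunits of a variant Polycomb repressive complex 1, was tested as dTAG-13 against untreated over the 4 time points. With edgeR no member and no gene at all was called, without or with the mutation (2 and 1 members and 793 and 308 genes at an unadjusted p under 0.05). This fit ignored that untreated and dTAG-13 libraries came from the same clone or replicate number. Voom with the block called no member, and 9 genes without and 3 with the mutation. With the block as a term in the groups alone, edgeR called 1 member and 155 genes without the mutation and 1 gene with it. Jag1 differed by -0.32 ± 0.10 without and -0.26 ± 0.10 with the mutation, and Rbpj by 0.52 ± 0.18 and 0.07 ± 0.18. Induction of Xist by doxycycline in ES cells, over 6 pairs of day 1 and day 0 groups, called no member with edgeR and 15 genes (0.0924%). Notch1 was the nearest, at 0.26 ± 0.07 (adjusted p 0.272), and it was the 1 member called by voom with the block.

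Other genes of the pathway were read from lists chosen from textbook knowledge. Of 24 further genes of the Notch machinery, 23 were tested. In NPC 2 were higher and 1 was lower over libraries without the block, where 5.47% and 3.16% of all genes were. The median difference of this list was -0.01 against 0.01 over all genes. Notch4, another receptor, rose by 0.77 (6.46 against 3.81 CPM, edgeR adjusted p 0.0103), Mib1, a ligase that ligands need, by 0.18 (adjusted p 0.0133), and the ligand Jag2 fell by 0.24 (adjusted p 0.0397). In ES cells 3 were higher and none lower, where 6.09% and 6.4% of all genes were. They included the co-activator Maml3, which rose by 1.60 (70.0 against 22.5 CPM, edgeR adjusted p 0.0125), and Numbl, a relative of the inhibitor Numb (0.34). For the members the medians were 0.20 in NPC and 0.26 in ES cells, against 0.01 over all genes in both.

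Of 7 further genes known as Notch targets, 6 were tested. Fabp7 was higher in NPC (2.4, edgeR adjusted p 0.0380, median 0.11 against 0.06 CPM) and Myc was lower in ES cells (-1.21, adjusted p 0.0124, 2.37 against 4.98 CPM). Both were named after their values were seen, and the Fabp7 call rests on 17 and 84 fragments. Of the 14 genes of the RBPJ and SPOC corepressor list, Spen rose by 1.59 in NPC and 1.51 in ES cells (edgeR adjusted p 4.28e-09 and 3.73e-05), and it was the engineered gene. Tbl1xr1, a subunit of NCoR complexes, fell by 0.34 in NPC and by 0.27 in ES cells, the latter named after its value was seen. In ES cells Ncor1, which encodes NCoR, and Tle4, a Groucho corepressor, fell by 0.40 and 0.96. Proneural genes were too scarce for a statement, since 3 of 7 were tested and none was called with edgeR.

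Markers of cell state moved in the same comparison as the target genes. The calls below are edgeR calls over libraries without the block, where 8.62% of genes were called in NPC and 12.5% in ES cells. With the block, voom called 310 genes in place of 1399 in NPC and 25 in place of 2027 in ES cells. Block results for these markers are not reported here. In NPC 4 of 8 pluripotency genes were called higher with the mutation (Nanog 0.81, Zfp42 0.78, Klf2 0.66, Tfcp2l1 0.52) and none lower, and their summed level was 365 to 1341 CPM (median 702) without and 426 to 1388 CPM (median 1112) with it. In ES cells Zfp42 was lower (-0.82), and the sum was 1781 to 2385 CPM against 1410.0 to 1604 CPM. Of 6 neural progenitor genes 4 were tested, and Meis2 (0.71) and Pax6 (1.34) were higher in NPC, the latter named after its value was seen, at a median of 4.67 against 1.38 CPM. Of 4 endoderm genes Gata6 (-2.08) and Gata4 (-1.01) were lower in NPC, and the summed endoderm level was 5.29 to 172 CPM without and 3.19 to 51.6 CPM with the mutation. Of 6 neuron genes Elavl4 was lower in NPC (-0.24) and Stmn2 in ES cells (-0.77), and of 2 mesoderm genes tested none was called. Feeder fibroblast genes gave no call in 6 tested with edgeR, at 4.52 to 51.2 CPM in sum without and 1.51 to 141 CPM with it. The part of these shifts in the levels of Hes1, Hey1, Nrarp and Notch1 was not tested. In these bulk cultures more cells of a type and more RNA per cell cannot be told apart.

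Reads that could be assigned to a parental genome gave the share of each allele for the long genes. Rbpj had 50.6% of its allelic fragments from Dom without and 51.8% with the mutation in ES cells, and 45.5% and 47.4% in NPC. Notch1 had 51.7% and 51.6% in ES cells and 51.5% and 51.4% in NPC, and Notch3 had 54.1% and 55% and then 60% and 58.4%. These shares were not tested. Hes1 had 15 allelic fragments in all 58 libraries (0.247% of its fragments), which says nothing about its alleles.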

How the data were processed

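Chromatin RNA was sequenced by the authors, who removed rRNA reads with Bowtie2 2.3.2, aligned the rest with STAR 2.4.2a to N-masked mm10, assigned reads to parental genomes with SNPsplit, and counted fragments with featureCounts 1.5.2, by strand, over each gene's whole transcribed span of a RefSeq annotation. The deposited values are raw counts of all fragments and of those assigned to Cast or Dom. Intronic reads are included, so levels reflect nascent RNA. Groups came from the sample titles, also where another label did not name the SPOC mutation (DelPID_SPOC). CPM was computed on the total of all genes. Genes passing filterByExpr (16227) were fitted in edgeR 4.0.16 (TMM, quasi-likelihood test, group means of all 58 libraries, R 4.3.3), with Benjamini-Hochberg adjustment over all of them and calls at 0.05. Leaving out libraries or clones reused the dispersion trend of the full fit. DESeq2 1.42.0, limma 3.58.1 voom (clone or replicate number as block, consensus correlation 0.33), another normalization, no filter, groups alone and counts summed per clone were alternatives. The members and gene lists were chosen with earlier results of these data known, and of the other lists at most 4 called genes with a mean of at least 5 CPM were named by rule. Some results that the rule names are not reported here. Tested on simulated data for the NPC comparison (14687 genes), the fit recovered 37% of 1.5-fold and 97% of 2-fold changes, with 4.29% of calls false. The simulated libraries were drawn independently, without the deviation that libraries of a clone shared, and no scarce gene was changed. These rates therefore do not cover false calls that arise from shared clones, or scarce genes such as Hey1. Same-numbered libraries of a line, untreated and with dTAG-13, also deviated together (r from 0.42 to 0.86). Replicates differed by more than counting noise in all 32 pairs of one group.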

Additional observations from a re-analysis of the deposited data

How the results depend on the processing

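The replicate block and sums per clone ended the calls of the members in both stages. With voom and the clone or replicate number as a block, 0 members were called in the NPC average (main 4) and 0 in the ES average (main 3), with 310 genes (main 1399) and 25 genes (main 2027), while the difference between the stages had 2 members and 1013 genes (main 0 and 106). Voom without the block, chosen after seeing the data, called 4 and 3 members. With counts summed per clone or number, 0 and 0 members and 62 and 0 genes were called. A term for the replicate number shared by mutant and matched groups, chosen after seeing the data since these numbers also deviated together (r from 0.24 to 0.44 in ES cells and 0.09 to 0.63 in NPC), called 4 members in NPC and 4 in ES cells and 2 in the difference, with 2747, 4794 and 1193 genes. The labels name the clones, and state no pairing of mutant with matched numbers. The paper, however, states that WT and SPOC (clones D9 and H1) were differentiated in parallel in duplicate experiments. It states the same for DelPID and each DelPID_SPOC clone. Neither the main fit nor the voom block joins mutant and matched libraries in this way.

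Under the block (voom) the other counts were 1 member and 122 genes for doxycycline (main 0 and 15), 3 and 9 genes for dTAG-13 with and without the mutation (main 0 and 0), 6295 genes from ES day 0 to NPC day 6 with the mutation (main 4073) and 91 for the 12 contrasts singly (main 60). As a term in the groups alone it gave 1 gene with and 1 member and 155 genes without the mutation for dTAG-13, and 2042 genes from ES to NPC. Groups of the comparison alone gave 1 member and 679 genes in ES cells, 46 genes in the difference between stages, 430 singly, 32 for doxycycline, 20 for dTAG-13 without the mutation, 0 members and 64 genes from ES to NPC with the mutation and 4 members without it (main 3 and 2). DESeq2 gave 1 member and 364 genes in the difference, 353 singly, 36 for doxycycline, and 2 and 1 for dTAG-13 with and without the mutation. Median-of-ratios factors, no filter and voom without the block each gave 1 gene for dTAG-13 with the mutation, and voom gave 55 in the difference. Without the 2 shallow libraries (under 9 M fragments), chosen after seeing the data, these were 2 and 180, and 33 singly. The cause of these changes was not tested.

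Leaving out each library gave 3 to 4 members and 991 to 1867 genes in NPC, 0 to 4 and 623 to 2692 in ES cells, 0 to 2 and 15 to 584 in the difference, 0 to 1 and 29 to 940 singly, 2 to 4 and 2524 to 4645 from ES to NPC with the mutation and 2 to 2 and 5251 to 6100 without, 0 to 0 and 9 to 19 for doxycycline, and 0 to 2 and 0 to 0 genes for dTAG-13. Leaving out each clone gave 3 to 5 and 979 to 3638, 0 to 5 and 1579 to 5305, 0 to 4 and 208 to 2480, and 0 to 3 and 60 to 1625. The sign of some members turned. Hes1 in ES cells was -0.0049 with the block, -0.15 to 0.21 without a library and -0.40 to 0.41 without a clone. Without a clone, Notch1 in ES cells was -0.054 (F6) to 0.27 (F10), Dll1 in NPC -0.32 (F10) to 0.028 (F6), Rbpj in NPC -0.072 (F6) to 0.35 (F10), and the difference between stages -0.14 (F10) to 0.33 (F6) for Notch1 and -0.078 (F6) to 1.37 (F10) for Rbpj. Dll1 in NPC was 0.017 without the shallow libraries, and Hey1 in ES cells just lost its call. Hes5 and Heyl were limited by depth.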

Other observations

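Over the 28 group means, genes whose log2 CPM was among the most like that of Hes1 were Fam160b2 and Avil (Pearson r of 0.88 and 0.88). For Nrarp they were Fam71e1, Arc and Abcb4 (0.80, 0.78 and 0.77), and for Notch1 Klhdc7a, Ilvbl and C4a (0.77, 0.74 and 0.72). The groups share lines and clones, so these values are a description. Among the members Hes1 and Nrarp had a correlation of 0.67, Hes1 and Hey1 of 0.53, and Notch3 and Jag1 of -0.74, the lowest of the pairs.

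The difference between stages in the degron line, in which no member was called by edgeR (4 at an unadjusted p under 0.05), did call genes of other lists, named after their values were seen. Zfp42 and Nanog, genes of the pluripotent state, had a mutation effect that was higher in NPC than in ES cells by 1.86 and 1.24 on the log2 scale (edgeR adjusted p 0.00194 and 0.0338), and so had the receptor Notch4 (1.71, adjusted p 0.0314). Gata4, an endoderm factor, had one that was lower by 2.42 (adjusted p 0.0234).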
